A study of Mus musculus with 22 samples.

Results

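The genes described here encode the proteins of the cytosolic ribosome. They were chosen by symbol: Rpl or Rps with a number and, in some, a letter, plus Rplp0, Rplp1, Rplp2 and Rpsa. Of 89 symbols that matched, 5 were left out because RefSeq calls them pseudogenes (Rpl6l, Rps12l1, Rps3a2, Rps3a3 and Rps4l). This left 84 genes of 36555 in the RNA table, 52 for the large and 32 for the small subunit. A ribosome holds 1 copy of nearly every such protein, so their genes are usually expressed together, and their mRNAs often start with a C followed by a run of pyrimidines, the 5′ terminal oligopyrimidine tract, through which growth signals set how much of them is translated. In liver, ribosome supply rises with growth and regeneration. These genes have also left many processed copies in the genome (retrocopies, mostly pseudogenes), whose sequence is so like that of the parent that short reads can be assigned to either.

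The study switched off YAP1, the growth-promoting effector of the Hippo pathway, in mouse hepatoblastoma. RNA was measured in 4 tumors from liver of a mouse on doxycycline (YAP1on tumors) and in 4 tumors of a mouse 6 days off doxycycline (day 6 tumors), both from the 4288Slowe/J line on a B6N.FVB(Cg) background, whose transgene Tg(CAG-rtTA3) uses the ubiquitous CAG promoter to make the doxycycline-responsive activator rtTA3. It was also measured in liver of 3 hbHep mice at days 121, 114 and 117 and of 3 mice titled WT and kept on NTBC (FAH liver), a drug that blocks tyrosine breakdown upstream of Fah. The hbHep and FAH mice share a deletion of exon 5 of Fah. The term hbHep stands for the hepatocyte-like cells that tumor cells turned into, as the series is titled. All YAP1on tumors carry a single mouse code and all day 6 tumors another. The effect of treatment and that of the mouse therefore cannot be told apart. The p-values rest on 1 spread shared by the 4 groups. It comes from tumors of 1 mouse in each tumor group and from separate mice in hbHep and FAH liver. For the tumor groups it holds no spread between mice of the same treatment. No source used here gives the ages or how many host cells remain in hbHep liver. Tumor and Fah-mutant mice differ in genotype as well as in state.

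All values are levels, that is, scaled reads per base of transcript as the authors deposited them, rescaled here so that the typical gene is equal between samples. The Yap1 level, which checks the tumor labels, was 5263 to 10750 in YAP1on and 1095 to 1248 in day 6 tumors. All 6 hepatocyte markers were present, and no marker of any list was at 0 in all 14 samples. The summed hepatocyte level was 220200 to 384800 in YAP1on tumors, 542800 to 679500 at day 6, 349600 to 566700 for hbHep mice and 1071000 to 1332000 for FAH mice. In the same order, the summed level of 5 bile duct genes was 28620 to 37630, 2546 to 7424, 993.0 to 1403 and 635.2 to 716.8, that of 6 macrophage genes 19650 to 29410, 11560 to 15170, 6536 to 17100 and 3017 to 5602, that of 7 T, NK and B cell genes 246.3 to 356.2, 503.9 to 625.3, 198.5 to 259.7 and 88.2 to 115.6, that of 4 neutrophil genes 428.8 to 1680, 459.2 to 1613, 63.9 to 127.8 and 34.7 to 51.6, and that of 5 cycling genes 2962 to 4859, 334.7 to 670.1, 1207 to 1846 and 226.2 to 244.0. The summed level of 5 endothelial genes was, in this order, 4789 to 5763, 5213 to 7630, 3310 to 6754 and 6781 to 6882. For 6 stellate and fibroblast genes it was 5886 to 11350, 7799 to 12150, 3374 to 7419 and 4531 to 7069. For 6 red blood cell precursor genes it was 17030 to 40690, 22010 to 58540, 7917 to 17490 and 9360 to 17010. The part of these cell types in the differences below was not tested. Single hepatocyte markers did not all follow their sum. Mean Alb was 47380 in YAP1on tumors and 35180 at day 6, whereas Ttr, Apoa1, Cyp2e1, Cps1 and Serpina1c were higher at day 6. Mean Serpina1c was 44100 in YAP1on tumors and 6350 in hbHep, and mean Apoa1 99820 and 80920. Alb, Ttr, Cyp2e1 and Cps1 were higher in hbHep. In these bulk samples, fewer cells of a type and less RNA per cell cannot be told apart.

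Of the 84 genes, 80 passed the filter on low values, with mean levels over the 14 samples from 389.3 (Rpl12) to 16470 (Rpl41). The highest after Rpl41, a very short basic protein of the large subunit, were Rps2 at 15610, near the mRNA entry of the small subunit, and Rpl17 at 13470. Rpl10l, Rpl39l, Rpl3l and Rpl32l did not pass. Rpl3l, the paralog of Rpl3 known from heart and skeletal muscle, stood at 1.60 ± 0.293 (SD, n = 4) in YAP1on tumors and 14.4 ± 9.16 (SD, n = 3) in FAH liver. Rpl10l, the testis paralog of Rpl10, was listed at 0 in all 8 tumors and at 3.03 or less in the other samples. Rpl39l and Rpl32l stood at 20.4 or less and 7.76 or less in every sample.

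Summed over the 84 genes, the level was 756100, 530200, 545700 and 342500 in YAP1on tumors 1 to 4. In day 6 tumors it was 355300, 298900, 338500 and 448500. In hbHep mice it was 410100, 394400 and 393200, and in FAH liver 668500, 472000 and 452700. The tumor groups overlapped, because YAP1on tumor 4 lay below day 6 tumors 1 and 4, whereas every hbHep mouse lay below every FAH mouse. As a share of the summed signal of all genes, YAP1on tumors held 2.14 to 4.38%, above the 1.42 to 1.92% of day 6 tumors, the 1.61 to 1.81% of hbHep and the 1.39 to 1.68% of FAH liver. The whole summed signal itself ran from 15990000 in a YAP1on tumor to 42120000 in an FAH liver, so levels and shares order the groups differently. Single genes also weigh on the shares. Gm10800 stood at 2552000 in FAH liver 2, which had the lowest share and a summed signal of 37420000. It stood at 35270 and 1116 in FAH livers 1 and 3. Shares without it were not taken.

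The genes moved together from sample to sample within a group. In YAP1on tumor 1 the median gene lay 0.56 above its group mean on the log2 scale, and 76 of 80 genes lay above. In YAP1on tumor 4 the median lay at -0.62 and 80 of 80 lay below. Day 6 tumor 4 stood at 0.30 with 80 of 80 above, day 6 tumor 2 at -0.23, and FAH liver 1 at 0.36 with 80 of 80 above. The same median over all genes tested was within 0.05 of 0 in the tumors and 0.09 in FAH liver 1. In the 3 hbHep mice the median gene stayed between -0.02 and 0.06, but each of these values is a mean of 2 technical libraries. Between the libraries of hbHep mice 1, 2 and 3 the median gene differed by 0.1, -0.35 and 0.13 on the log2 scale. In the same order, 77, 62 and 80 of 80 genes lay within 0.5.

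Other groups of genes shifted less in these tumors. Mitochondrial ribosomal proteins, 79 genes that build the separate ribosome of mitochondria, shifted by 0.17 in YAP1on tumor 1 and -0.38 in tumor 4. The 38 ribosome assembly factors shifted by -0.04 and -0.03. In FAH liver 1 the other groups shifted nearly as far as the 0.36 of the ribosomal protein genes. Mitochondrial ribosomal proteins shifted there by 0.31, 33 elongation and initiation factors by 0.27 and assembly factors by 0.25. YAP1on tumor 1 also held 9.11% of its signal in mitochondrial transcripts, against 5.27 to 6.01% in the other YAP1on tumors. Day 6 tumors held 7.23 to 8.40%, hbHep mice 3.54 to 4.24% and FAH mice 3.56 to 3.84%. Its part in the shift and in the group differences was not tested.

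**Figure D1:**
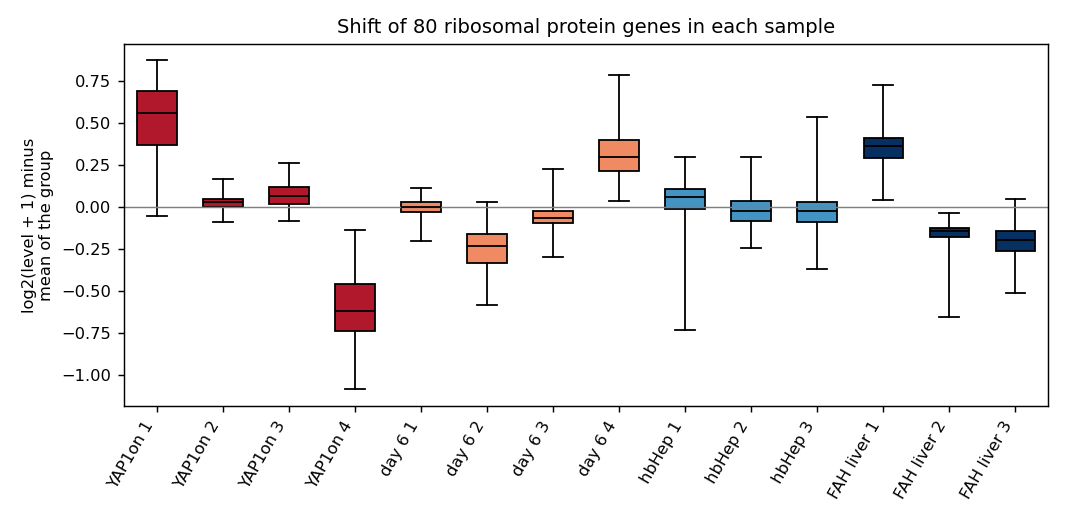
Boxes show, for each of the 14 samples, the log2(level + 1) of 80 ribosomal protein genes minus the mean of the gene in its group (line, median; box, quartiles; whiskers, lowest and highest gene). YAP1on tumor 1 (median 0.56) and tumor 4 (median -0.62) stand apart from the samples around 0.

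At day 6 after YAP1 was switched off, ribosomal protein mRNAs were lower on average: 79 of 80 genes had a log2 difference (day 6 minus YAP1on) below 0, with a median of -0.52 against 0.02 over all 17953 genes tested. By limma, with p adjusted over all genes tested, 27 of 80 fell and 0 rose. Over all genes, 10.8% fell and 12.8% rose, or 23.6% in either direction. Of the 80, 62 had an unadjusted p under 0.05, 0 of them in the direction of a rise. Over all genes tested, 6184 of 17953 had an unadjusted p under 0.05, in either direction. The fall covered both subunits: 16 of 48 large-subunit genes (median -0.50) and 11 of 32 small-subunit genes (median -0.61) passed. The size was much alike from gene to gene, with 64 of 80 within 0.25 of the median.

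The samples themselves overlapped for most genes. In 6 of 80 (7.50%) every day 6 tumor lay below every YAP1on tumor, against 13.9% of all genes tested. These 6, named after their values were seen, were Rpl3, Rpl4, Rpl12, Rpl23, Rps4x and Rps12. The count of 27 rested on single libraries: it was 69 without YAP1on tumor 4, 6 without day 6 tumor 2, and 11 to 14 without any of YAP1on tumors 1, 2 and 3 or day 6 tumors 1 and 3. It was 40 without YAP1on tumors 1 and 4, and the median difference then was -0.59.

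Rpl22l1 stood out among paralogs. It is the paralog of Rpl22, a large-subunit protein dispensable for growth in mice, and Rpl22 is known in mouse to hold Rpl22l1 down. Rpl22l1 stood at 2263, 1406, 1308 and 589.9 in YAP1on tumors 1 to 4 and at 577.0, 425.8, 572.3 and 788.9 in day 6 tumors. Only day 6 tumor 4 reached above the lowest YAP1on tumor. The fall was 2.17-fold (log2 difference -1.12 ± 0.30 SE, adjusted p = 0.0138). Rpl22 itself stood at 3114 ± 871 (SD, n = 4) and 2398 ± 562 (SD, n = 4), with a log2 difference of -0.36 ± 0.21 (adjusted p = 0.245). The Rpl22l1 level was 30.2 to 55.6% of the Rpl22 level in YAP1on tumors, 22.2 to 25.8% at day 6, 10.8 to 16.1% in hbHep mice, and 7.45 to 7.57% in FAH mice, with no overlap between neighbours in this order. This ratio is given as a description, without a test.

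Rpl12, at the base of the stalk that recruits translation factors, stood at 911.0, 551.4, 647.9 and 360.6 in YAP1on tumors and at 273.3, 249.8, 234.7 and 343.2 at day 6, without overlap. It fell 2.15-fold (log2 difference -1.10 ± 0.24, adjusted p = 0.00303). Rps19, a small-subunit protein whose loss causes Diamond-Blackfan anemia in humans, stood at 10890, 6279, 6240 and 3908, then at 3438, 2780, 3351 and 4228. Its groups overlapped in day 6 tumor 4, and it fell 1.87-fold (adjusted p = 0.0102).

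Rps12, in the beak of the small subunit, had the lowest difference, at -1.26 ± 0.31 (adjusted p = 0.00709). Its levels were 1163, 675.8, 699.0 and 379.2 in YAP1on tumors and 256.0, 207.6, 328.9 and 355.1 at day 6. This gene shares its sequence with 25 annotated copies in the table, which held 93.1 to 94.8% of the family's summed level in the tumors, most of it in Rps12-ps3 (3513 to 15160). The summed family gave -1.04 ± 0.27 (adjusted p = 0.00965). Rpl15 (1.73-fold, adjusted p = 0.0134) also fell.

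Among the remaining genes that fell were 2 of the 3 stalk proteins, Rplp0 (1.43-fold, adjusted p = 0.0157) and Rplp2 (1.41-fold, adjusted p = 0.0198), and Rpsa (1.58-fold, adjusted p = 0.0229), a small-subunit protein also known as a laminin receptor. Rplp1, the third stalk protein, had a log2 difference of -0.45 ± 0.16 (adjusted p = 0.0547). Rpl29 was the 1 gene above 0, with 3214, 2732, 2691 and 1913 in YAP1on tumors and 3045, 2757, 3004 and 3464 at day 6 (log2 difference 0.24 ± 0.13, adjusted p = 0.235). Its copy Gm8210 stood at 436.9 to 690.4 in YAP1on tumors and at 0 to 3.12 at day 6. The sum of Rpl29 and its copies differed by -0.05 ± 0.14. Rpl7l1, the Rpl7 paralog, differed by -0.02 ± 0.14 (adjusted p = 0.934), and Rps27l, the p53-induced paralog of Rps27, by -0.25 ± 0.28 (adjusted p = 0.570).

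**Figure D2:**
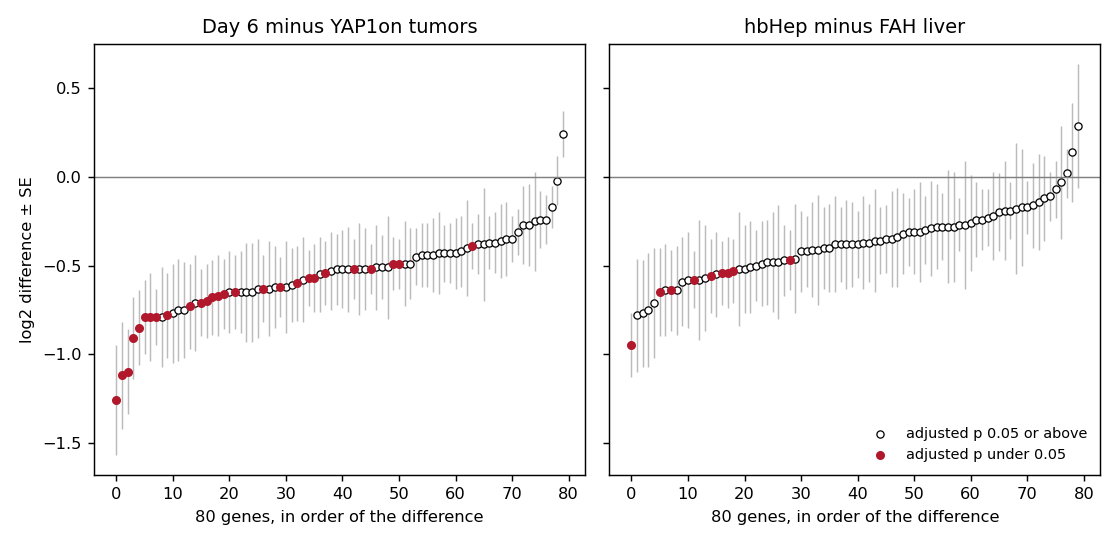
Each point is 1 of 80 ribosomal protein genes, in order of its log2 difference (y axis, with SE), for day 6 minus YAP1on tumors (left) and hbHep minus FAH liver (right). Red points have a limma adjusted p under 0.05: 27 on the left and 9 on the right, all below 0.

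**Figure D3:**
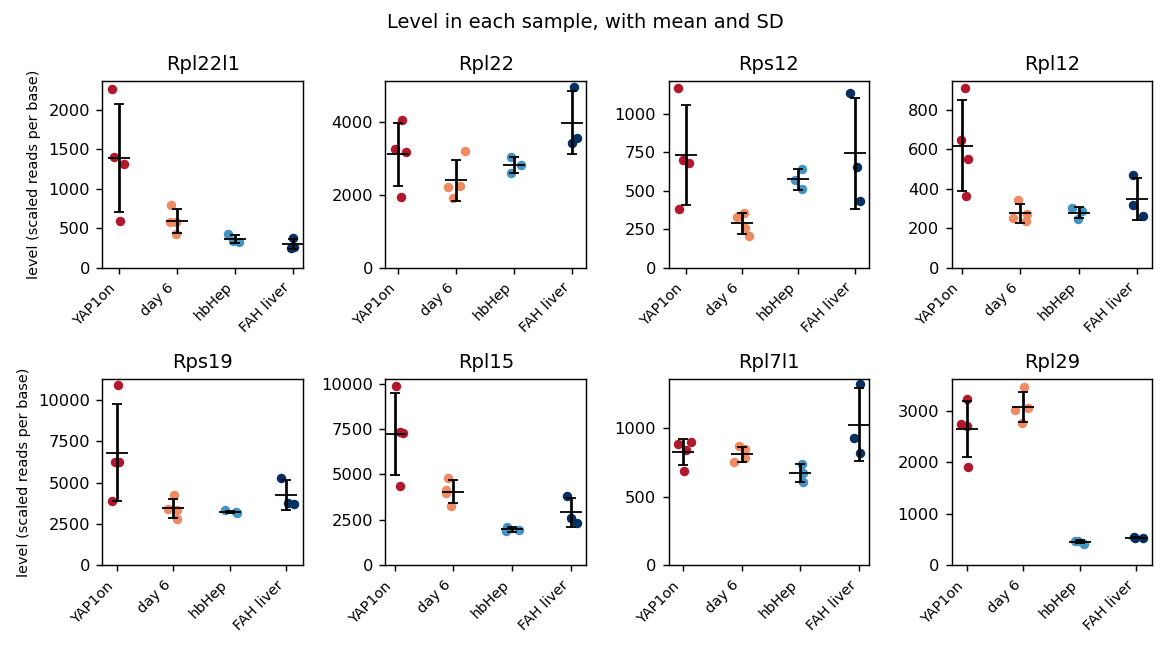
Points give the level (scaled reads per base) of 8 genes in each of 14 samples by group, with the mean (dash) and SD (error bar). Rpl22l1 and Rpl15 are highest in YAP1on tumors, Rpl7l1 differs little between the tumor groups, and Rpl29 is low in hbHep and FAH liver.

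Start sites were examined for 64 of the 84 genes, those with a promoter row in RefSeq (GRCm38.p6). The oligopyrimidine start was searched on the gene's strand as C followed by at least 4 of C or T, beginning within 5 bases of the annotated start. It was present in 45.3% of the 64 genes and in 18.5% of 27025 promoters. At exactly the annotated start the shares were 20.3% and 2.48%. Within the 300 bases around the start, both strands searched, CCGGAAG (a core of ETS family sites) was present in 39.1% of the genes and 9.11% of all promoters, AAGATGG (YY1) in 15.6% and 6.47%, and GGGCGG (GC box) in 59.4% and 35.9%. TATAAA was present in 12.5% and 14.2%, and CACGTG (E-box) in 7.81% and 7.23%. The 27025 promoters include those of genes that did not pass the filter on low values, whereas 60 of the 64 genes passed it. Shares over promoters of tested genes alone were not taken.

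The 80 bases before and the first 10 from the annotated start are shown for the genes with the lowest differences at day 6 that have a promoter row, so that genes with and without the tract can be compared. They are written 5′ to 3′ on the gene's strand, with the tract in capitals. Rpl22l1 is at chr3:28805428-28805517 (plus strand), Rpl12 at chr2:32961632-32961721 (plus), Rpl15 at chr14:18270977-18271066 (minus), Rps12 at chr10:23787200-23787289 (minus) and Rps19 at chr7:24884512-24884601 (plus).
Rpl22l1: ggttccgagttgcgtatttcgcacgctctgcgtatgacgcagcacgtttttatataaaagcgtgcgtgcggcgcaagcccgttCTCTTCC
Rpl12: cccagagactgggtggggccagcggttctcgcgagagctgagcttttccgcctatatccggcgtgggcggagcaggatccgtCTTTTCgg
Rpl15: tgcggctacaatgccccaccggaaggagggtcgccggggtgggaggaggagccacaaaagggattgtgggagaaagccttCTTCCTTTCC
Rps12: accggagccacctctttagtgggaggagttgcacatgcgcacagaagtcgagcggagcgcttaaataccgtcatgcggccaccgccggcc
Rps19: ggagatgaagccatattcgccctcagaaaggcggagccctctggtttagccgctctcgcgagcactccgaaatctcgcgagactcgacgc
The tract is present in Rpl22l1, Rpl12 and Rpl15. All 5 genes were chosen because they fell, so the tract's presence says nothing about the fall. In Rps12 and Rps19 no such run begins within 5 bases of the start used, and for Rps12 the promoter row's start is not the annotated start of the gene.

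Other lists of ribosome supply genes are given beside the share of all genes that fell (10.8%) or rose (12.8%) at day 6. Of 38 ribosome assembly factors, 4 fell and 0 rose (median -0.08), among them Rrp1b (log2 difference -0.90 ± 0.16, adjusted p = 0.000784) and Npm1, the nucleolar chaperone nucleophosmin (-0.68 ± 0.14, adjusted p = 0.00232). Of 13 RNA polymerase I genes, which make ribosomal RNA, 1 fell and 0 rose. Of 33 elongation and initiation factors, 2 fell and 1 rose, and of 22 growth regulators of ribosome supply 1 fell and 4 rose. Rack1, a scaffold protein on the small subunit outside the symbol rule, fell 1.78-fold (adjusted p = 0.00349). Of 79 mitochondrial ribosomal protein genes, 8 rose and 1, Mrps6, fell (median 0.11). Myc, an activator of ribosome synthesis, stood at 633.3, 624.8, 793.8 and 724.4 in YAP1on tumors and 353.3, 364.1, 419.5 and 380.2 at day 6. Its groups did not overlap, and it fell 1.82-fold (adjusted p = 0.0101). Larp1, which binds oligopyrimidine mRNAs and restrains their translation, rose 1.74-fold (adjusted p = 0.00214).

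In hbHep, most ribosomal protein genes lay below FAH liver: 77 of 80 had a log2 difference (hbHep minus FAH) below 0, with a median of -0.38 against -0.01 over all genes, a gap that was gone under quantile normalization (-0.05 against -0.07). By limma 9 of 80 fell and 0 rose, against 17.1% and 19.9% of all genes (36.9% in either direction). An unadjusted p under 0.05 was found in 21 of 80, a smaller share than the 8192 of 17953 over all genes tested. In 46 of 80 (57.5%) every hbHep mouse lay below every FAH mouse, against 21.8% of all genes. The count rested on single mice: 1 gene passed without FAH liver 1, which was high for 80 of 80 genes, and 5, 3 and 4 without hbHep mice 1, 2 and 3. The median without FAH liver 1 was -0.21.

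Rps2 had the lowest difference. It stood at 11450, 15400 and 11540 in hbHep mice and at 30080, 22000 and 22140 in FAH liver, without overlap, and was 1.93-fold lower (log2 difference -0.95 ± 0.18, adjusted p = 0.000798). Summed with its 11 copies the difference was -0.95 ± 0.19. Rpsa was 1.56-fold lower (adjusted p = 0.0378), with 7175, 8755 and 7455 against 15100, 11140 and 10570. Rpl7l1 was lower by a log2 difference of -0.58 ± 0.16 (adjusted p = 0.0109), with 736.9, 603.1 and 670.9 against 1322, 819.8 and 925.9, again without overlap.

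Rps29, a small zinc-binding protein of the small subunit, was 1.46-fold lower (adjusted p = 0.0301). Rpl36a (adjusted p = 0.0452), Rps3a1 (0.0491), Rpl7a (0.0485), Rpl8 (0.0282) and Rpl30 (0.0403) also passed, and Rps3a1 did not pass when summed with its copies (-0.51 ± 0.24, adjusted p = 0.113). Rpl22l1 lay on the other side, at 328.4, 421.0 and 340.2 in hbHep and 376.7, 254.6 and 265.3 in FAH liver, a difference of 0.29 ± 0.35 (adjusted p = 0.548).

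Of 79 mitochondrial ribosomal protein genes, 35 were lower in hbHep than in FAH liver and 1 (Mrps18a) higher, with a median of -0.47, beside 17.1% lower and 19.9% higher over all genes. Of the assembly factors, 10 of 38 were lower and 0 higher, with the largest difference in Dkc1, the pseudouridine synthase dyskerin (-1.05 ± 0.19, adjusted p = 0.000602). Of 33 elongation and initiation factors, 7 were lower, a share near that of all genes, and 1, Eif5b, was higher.

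The comparisons of tumors with Fah-mutant liver held the widest differences, and in several genes a copy moved the opposite way. Between YAP1on tumors and FAH liver, 17 of 80 genes were higher in tumors and 18 lower, against 34.4% and 33.5% of all genes (67.9% in either direction), with a median of -0.12 (0.04 over all genes) that turned to 0.85 under quantile normalization. Between hbHep and YAP1on tumors, 4 were higher in hbHep and 26 lower, against 28.8% and 26.3% (55.1% in either direction), with a median of -0.26 (-0.02 over all genes). The 2 comparisons share the YAP1on tumors. In both, differences of single genes went far past the median. Between YAP1on tumors and FAH liver, 8 genes differed by more than 2 on the log2 scale. Over all genes tested, that comparison had quartiles of -0.75 and 0.96 and ran from -17.78 to 11.52. The share of all genes past 2 was not counted, so the 8 are not read as particular to this set.

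Rpl3, which lines the peptidyl transferase center, stood at 10990, 8298, 8222 and 6222 in YAP1on tumors and 4786, 4425, 4744 and 5214 at day 6. In hbHep it stood at 334.8, 433.0 and 327.3 and in FAH liver at 565.3, 389.6 and 455.9, below every tumor. Its retrocopy Rpl3-ps1 did the reverse, with 0 to 16.2 in the 8 tumors, 7010 to 8049 in hbHep mice, and 8125 to 11420 in FAH mice. Copies held 94.7 to 96.1% of the family's level in hbHep and 0.0807 to 0.255% in YAP1on tumors. For Rpl3 alone the difference between YAP1on tumors and FAH liver was 4.15 ± 0.17 (adjusted p = 5.85e-11). For the sum it was -0.24 ± 0.17 (adjusted p = 0.220), and between hbHep and YAP1on tumors -0.06 ± 0.17 (adjusted p = 0.798).

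Rps13, a small-subunit protein, gave the same split with Rps13-ps1. The gene stood at 5887 to 15740 in YAP1on tumors and 198.5 to 315.7 in hbHep. The copy was listed at 0 in the 4 YAP1on tumors, at 6.78 or less at day 6, and stood at 2981 to 4004 in hbHep mice, and 3820 to 6054 in FAH mice. Summing lowered the difference between YAP1on tumors and FAH liver from 4.82 to 0.99 ± 0.27 (adjusted p = 0.00465). Rps3a1, with Rps3a2 and Rps3a3, went from 2.30 to 0.38 ± 0.23 (adjusted p = 0.148).

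Rpl34, with Rpl34-ps1, which RefSeq lists as protein coding, went from 3.52 to 1.29 ± 0.28 (adjusted p = 0.000785). Rpl29, with Gm8210 among its copies, went from 2.27 to 0.84 ± 0.15 (adjusted p = 0.000193). For these families the summed level was still higher in the YAP1on tumors.

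Some copies were high in tumors instead. Rpl15-ps3 stood at 1867 to 4374 in YAP1on tumors, 1559 to 2164 at day 6, and was listed at 0 in all 6 hbHep and FAH samples. Rps6-ps4 stood at 570.7 to 2375 in the 8 tumors and was listed at 0 in the other 6 samples. Rpl10-ps3 outweighed Rpl10, the large-subunit protein that joins late in assembly, in every group: its means were 16440, 13270, 8077 and 9683 in YAP1on tumors, day 6 tumors, hbHep and FAH liver, against 2313, 1683, 3421 and 5623 for Rpl10. Rpl10 alone was lower in YAP1on tumors than in FAH liver (-1.24 ± 0.25, adjusted p = 0.000388), whereas the sum differed by 0.28 ± 0.20 (adjusted p = 0.221).

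Over the whole table, 29 genes stood above 300 in every hbHep and FAH sample and below 50 in every tumor. Of these, 6 were annotated copies of ribosomal protein genes (Rpl3-ps1, Rpl34-ps1, Rps13-ps1, Rps2-ps10, Rps3a2 and Rps3a3), 13 were RefSeq pseudogenes and 0 were genes of the 84. Genotype, library set and state cannot be told apart for this split, and the share of reads that a parent gene lost to its copy was not measured. Day 6 against YAP1on and hbHep against FAH liver stay within a side of it, but single copies differed there too. Over the 58 copies tested, log2 differences ran from -8.08 to 1.74 at day 6 (quartiles -0.73 and 0.03). For hbHep minus FAH liver they ran from -1.86 to 5.83 (quartiles -0.45 and 0.33).

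Other wide differences had no paired copy that moved. Rplp0, a stalk protein often used as a reference gene, stood at 9638 to 15190 in YAP1on tumors and 7664 to 10340 at day 6. It stood at 627.5, 678.1 and 763.0 in hbHep and 932.3, 774.0 and 744.9 in FAH liver. The difference between YAP1on tumors and FAH liver was 3.95 ± 0.16 (adjusted p = 2.96e-11), and 3.94 when summed with its 1 paired copy, at 6.71 or less in mean. Rps7 went the same way (2.38 ± 0.26, adjusted p = 1.09e-06), at 1795 to 5044 in YAP1on tumors and 491.8 to 792.5 in FAH liver. Copies known only by a Gm name were paired only where RefSeq lists the parent's name, so others may be missing from these sums.

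Rpl22l1 was 4.25-fold higher in YAP1on tumors than in FAH liver (log2 difference 2.09 ± 0.33, adjusted p = 4.07e-05), and hbHep lay 3.46-fold below YAP1on tumors (adjusted p = 0.000283). Rpl15 was 2.44-fold higher in YAP1on tumors than in FAH liver (adjusted p = 0.000147), a log2 difference of 1.29 that became 1.63 with its copies summed. Rps28 was 2.70-fold lower in YAP1on tumors (3882, 2779, 3008 and 1849 against 9658, 7020 and 6229, adjusted p = 3.70e-05). Rpl21 was 2.34-fold lower (2012, 1927, 2148 and 1658 against 5758, 4024 and 3964, adjusted p = 1.03e-06). Both lay without overlap, and both were higher in hbHep than in YAP1on tumors, by 1.92-fold (adjusted p = 0.00219) and 2.16-fold (adjusted p = 6.14e-06).

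Rpl36, Rpl27a and Rps27l were also lower in YAP1on tumors than in FAH liver, by 2.30-fold, 2.29-fold and 2.27-fold (adjusted p = 0.000780, 0.000270 and 0.00239). Rps27l stood at 17.0 to 17.8% of the Rps27 level in YAP1on tumors, 19.0 to 23.1% at day 6, 34.8 to 35.4% in hbHep mice, and 38.4 to 40.4% in FAH mice, a description without a test. Rps27 itself differed between YAP1on tumors and FAH liver by 0.00 ± 0.32 (adjusted p = 0.997). Mitochondrial ribosomal protein genes were lower in YAP1on tumors than in FAH liver in 72 of 79 cases and higher in 1 (median -1.10), beside 33.5% lower and 34.4% higher over all genes.

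Rpl39, which lies in the peptide exit tunnel, stood at 5860, 3554, 3642 and 1857 in YAP1on tumors and 1969, 1627, 1982 and 2795 at day 6. It stood at 1756, 1690 and 1508 in hbHep, below every YAP1on tumor, and was 2.09-fold lower there (adjusted p = 0.00561). Rps16 was 3.64-fold lower in hbHep than in YAP1on tumors (adjusted p = 9.1e-05), but in hbHep mouse 1 its technical libraries read 355.2 and 1794. Rps4l, the pseudogene paired with Rps4x, rose at day 6 (log2 difference 0.66, adjusted p = 0.0389), where Rps4x fell (-0.62, adjusted p = 0.0152). Of the genes with the highest levels, Rpl41 and Rpl17 differed at day 6 by -0.38 ± 0.32 (adjusted p = 0.454) and -0.65 ± 0.28 (adjusted p = 0.112).

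**Figure D4:**
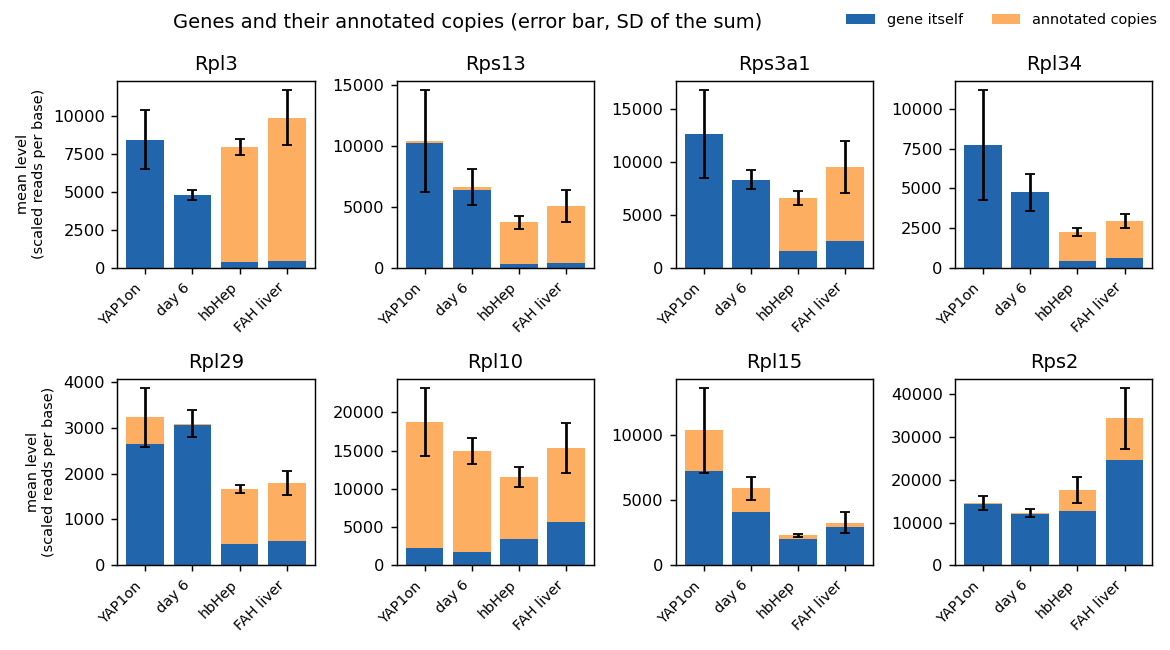
Bars give the mean level (scaled reads per base) of 8 genes (blue) and of their annotated copies stacked on top (orange), by group, with the SD of the sum. For Rpl3, Rps13, Rps3a1, Rpl34 and Rpl29 the copies are the larger part in hbHep and FAH liver and a small part in tumors, and for Rpl10 they are the larger part in every group.

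Open chromatin at the start sites was compared in 5 Omni-ATAC interval lists, 1 library each, without a test. The annotated start lay inside an interval in 23.4% of the 64 genes in the YAP1on list, 56.2% at day 14, 65.6% at day 33 and 70.3% at day 64 without YAP1, and 60.9% in liver labeled WT. For 12406 other genes the shares were 21.5%, 60.1%, 64.1%, 61.9% and 58.2%, and intervals of the YAP1on list were shorter, with a mean of 23.7 bases against 66.4 to 76.6. Within 500 bases of an interval, the shares of ribosomal protein genes were 92.2 to 95.3% in all 5 lists, against at least 82.5% of other genes.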

How the data were processed

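RNA of 17 libraries was deposited by the authors as a signal per gene, taken to be scaled reads per base. Per the submitters' processing notes, the tools were kallisto 0.45.0 and sleuth, with the build GRCm38.p6. kallisto estimates how reads that fit several transcripts divide between them. Low values were whole multiples of the gene's lowest positive value over the 17 libraries in 3.61 to 24.2% of cases (tolerance 0.02). That lowest value can come from another library, so the share does not test for whole reads within a library. Reads were not recovered and the depth is unknown. Each hbHep mouse had 2 technical libraries, whose mean was used, leaving 14 samples. Values were divided by median-of-ratios factors (0.963 to 1.10) and called levels. Genes with a level of at least 10 in at least 3 samples were tested with limma 3.58.1 (lmFit, eBayes with trend, R 4.3.3) on log2(level + 1), in 1 model of the 4 groups. Calls have a Benjamini-Hochberg adjusted p under 0.05. Folds come from that log scale and understate changes of low genes. The fit was tested on simulated data. Alternatives tried are given at the end.

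Copies were 313 genes paired with a parent by symbol (a -ps ending or a shared stem) or by RefSeq synonyms, and 58 passed the filter. Named were, per comparison, the 6 highest and 6 lowest genes that passed, all that differed by at least 1 on the log2 scale, paralog groups, the 3 highest and 3 lowest by level, stalk proteins and Rpsa. Of the other lists, up to 3 genes on each side that passed were eligible. snoRNA host genes were not used here (0 of 15 matched). Other copies, Rpl4, Rpl23, Rpl7a, Rpl8 and Rpl30 were named after their values were seen. One gene that the rule names is not reported here. Members and lists were chosen with earlier results of these data known. ATAC interval lists are on mm10, per the submitters' processing notes, and mm10 has the primary coordinates of GRCm38. No source used here names the interval caller. The authors deposited a score beside each interval of the YAP1on list, with no stated meaning, and it was not used.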

Additional observations from a re-analysis of the deposited data

Results flagged for a closer look

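Among 72 sets of 4 tumors tested for a sample far from the others, 3 were marked, and chance marks about 1 in 20. Rplp1 stood at 12990 in day 6 tumor 4, against 8920 to 9497 in the other day 6 tumors. Rps29 stood at 4691 in the same tumor, against 3463 to 3618. The pseudogene Rps4l, a copy of Rps4x, stood at 198.6 in YAP1on tumor 2, against 139.9 to 149.5 in the other YAP1on tumors. Day 6 tumor 4 lay above its group mean for 80 of 80 ribosomal protein genes.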

How the results depend on the processing

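The median difference stayed below 0 for day 6 against YAP1on and for hbHep against FAH liver under every alternative run, while counts of genes that passed moved. Under quantile normalization the hbHep minus FAH liver median was -0.05, against -0.07 over all genes, so the shift relative to all genes was gone (0.02, against -0.37). The 27 genes lower at day 6 became 74 under quantile normalization and 14 without a filter on low values. The 9 lower in hbHep than in FAH liver became 1 under quantile normalization, 3 without a filter, 5 without a trend and 4 in a fit of only those groups. Against YAP1on tumors, the 4 genes higher in hbHep became 8 with values as deposited and 1 under quantile normalization, and the 26 lower became 57 under quantile normalization, with a median of -0.86. Between YAP1on tumors and FAH liver, quantile normalization gave 57 higher, 1 lower and a median of 0.85, the opposite sign to -0.12, and Rps2, Rpl41 and Rplp1 turned to 0.56, 1.08 and 1.15. Summing with copies turned Rpl10 to -0.68 (hbHep minus YAP1on) and 0.28 (YAP1on minus FAH) and Rpl3 to -0.24 (YAP1on minus FAH). The cause was not tested for quantile normalization.

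Leaving out 1 sample gave 6 to 69 genes lower at day 6, 2 to 6 higher and 24 to 37 lower in hbHep than in YAP1on tumors, 1 to 12 lower in hbHep than in FAH liver, and 13 to 23 higher and 12 to 30 lower in YAP1on tumors than in FAH liver. The median ranged from -0.75 to -0.38 at day 6, -0.46 to -0.08 for hbHep minus YAP1on, -0.47 to -0.21 for hbHep minus FAH liver and -0.27 to 0.08 for YAP1on minus FAH liver, positive without YAP1on tumor 4 (0.08) or FAH liver 1 (0.05). Without YAP1on tumor 1, 30 genes were lower in YAP1on tumors than in FAH liver, and without YAP1on tumor 4 or hbHep mouse 3, 2 genes were higher in hbHep than in YAP1on tumors. With the replicate number as a block, the numbers that passed were 27 lower at day 6, 3 higher and 27 lower for hbHep minus YAP1on, 6 lower for hbHep minus FAH liver, and 18 higher and 16 lower for YAP1on minus FAH liver. Same-numbered tumors correlated at -0.23 to -0.03. Same-numbered hbHep and FAH mice correlated at 0.187, 0.071 and 0.021, with the same number the best partner in 2 of 3, a hint from the data only. The samples were taken to share only a number.

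The mean summed level of hbHep was 399300, and 454100 with copies and 389600 from the first technical libraries alone. In mouse 1, Rps16 differed between technical libraries by -2.34 on the log2 scale, and hbHep values of Rps16 rest on that. Start sites within 500 bases of an interval were 92.2, 95.3, 93.8, 93.8 and 93.8%, and within an interval of at least 200 bases 0, 3.12, 6.25, 4.69 and 4.69%, for YAP1on, days 14, 33 and 64 and liver. Of 2362 values of 114 results for single genes, 2213 kept their side of the threshold, 89 lost the call and 54 gained it. Another 6 changed sign with a call in the main fit or in the alternative. A change of sign without a call in either fit was counted among the 2213. An example is Rps2 in hbHep minus YAP1on, at -0.17 alone and 0.28 with its copies summed. Precision is limited by 3 or 4 samples a group and by unknown depth.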
